A study of Mus musculus with 19 samples.

Results

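Whole livers of 6 mice labelled HF-KO were compared with whole livers of 4 mice labelled LF-C, which are 10 of the 19 RNA sequencing libraries of the series, 1 library per mouse. HF-KO mice were adults with a hepatocyte-specific knockout of PPARγ, induced before 24 weeks on the HFCF diet, rich in fat, cholesterol and fructose, and their liver disease label is non-alcoholic steatohepatitis. LF-C mice were adult control mice on the low fat LFCF diet, labelled healthy. Beside this pair stand 5 HF-C mice (control genotype, the rich diet, labelled with steatohepatitis) and 4 LF-KO mice (the knockout, the low fat diet, labelled healthy). The pair was chosen by its titles, and all 24192 genes of the joined count tables entered. The pair asks which differences from a healthy liver are present in the livers of KO-labelled mice on the rich diet. Diet and genotype differ together between HF-KO and LF-C and cannot be told apart within the pair. The labels do not name the Cre transgene, the exons removed, the sex or the age in weeks, and cells of the liver other than hepatocytes are not labelled as targeted.

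PPARγ (gene Pparg) is a nuclear receptor that binds fatty acid ligands and switches on genes of fat uptake and storage. It is best known from fat cells, and hepatocytes of fatty livers also express it, where its targets include proteins that coat lipid droplets. Steatohepatitis joins such fat storage with injured hepatocytes, an influx of monocyte-derived macrophages, and collagen laid down by activated stellate cells.

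The LF-C libraries held 11437875 (LF-C-1) to 20711869 (LF-C-2) counted fragments and the HF-KO libraries 12098671 to 18696031. Levels are CPM, counts scaled to a common library size with TMM factors, given per library or as mean ± SD. Fold changes are on the log2 scale with their SE, and calls were made at an adjusted p under 0.05 in edgeR's quasi-likelihood test. The libraries of a group differed in how levels ran with gene length. Across the genes tested, the rank correlation of a library's deviation from its group mean with gene length was -0.222 and -0.515 in LF-C-1 and -2 against 0.509 and 0.491 in LF-C-3 and -4. It was -0.457 and -0.327 in HF-KO-2 and -6 against 0.117 to 0.433 in the other HF-KO libraries, and its part in the results was not tested. LF-C-2 stood apart in other measures too. Its TMM factor was 0.611 against 0.858 to 1.121 in the other 9 libraries of the pair, mitochondrial genes held 1.638% of its counts against 4.019% to 5.924%, and it lay alone at one end of the first principal component of the 10 libraries, which held 50.7% of their variance. HF-KO-2 lay alone at one end of the second, which held 24.7%. The summed level of 7 erythroid genes was 1533 CPM in LF-C-2 and 246.3 to 267.7 CPM in the other LF-C libraries, the summed level of 13 bile duct genes was 240.5 CPM against 56.97 to 94.69, and that of 5 pancreatic acinar genes was 39.19 CPM against 0 to 0.2038. Acinar genes reached at most 0.3682 CPM in HF-KO, with Prss2 and Cpa1 at 0 in all 10 libraries. Pnlip was at 0 in every LF-C library too, so the acinar sum of LF-C-2 came from Cel and Ctrb1 alone. The tissue label held in every library, with Alb, the serum albumin made by hepatocytes, at 79710, 119100, 58860 and 51030 CPM in the 4 LF-C mice and 38030 to 46950 (median 42090) in HF-KO.

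Pparg (ENSMUSG00000000440, chromosome 6, 115361221 to 115490401) had more counts in HF-KO than in LF-C. Counts over the whole gene thus do not show the knockout. As the labels do not name the exons removed, they cannot check its label either. The level was 18.96, 8.06, 5.92 and 12.6 CPM in the 4 LF-C mice and 47.1 to 107 (median 56.3) CPM in the HF-KO libraries, so every HF-KO library lay above every LF-C library. The difference was 2.53 in log2(CPM + 1), and the two-sided exact permutation test gave p = 0.00952, the smallest that the 210 splits of 10 libraries allow. LF-KO, with the same knockout label, stood at 35.3, 41.1, 12.5 and 11.6 CPM. In the edgeR fit the log2 fold change was 2.60 ± 0.38 (adjusted p = 0.00766), and the call was kept when any single library was left out. Reads are summed over all exons of a gene, so the genotype is written as labelled and every direction rests on the labels. In bulk liver, a change in a gene of some cell type can come from more of those cells or from more RNA per cell, and these cannot be told apart.

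Of 13641 genes tested, 430 were called between HF-KO and LF-C (3.15%), 282 higher (2.07%) and 148 lower (1.08%) in HF-KO, and 3085 had an unadjusted p under 0.05. The libraries of HF-KO and LF-C did not overlap in 386 of the 430 called genes and in 1245 of all 13641 tested. For a called gene, no overlap is thus the usual state and adds little. The same edgeR test gave 2457 of 13825 genes (17.8%) for HF-C vs LF-C, 1469 higher (10.6%) and 988 lower (7.15%). It gave 1360 of 13915 genes (9.77%) for HF-KO vs HF-C, 605 higher (4.35%) and 755 lower (5.43%). HF-KO vs LF-C and HF-C vs LF-C share the LF-C libraries, so their values are given side by side, and HF-KO vs HF-C, in which LF-C takes no part, is the test of the difference between them. Both counts depended on single libraries. Of the 88 called genes chosen for naming, printed or not, 30 kept the call in all 10 leave-one-out fits. Higher and lower genes numbered 54 and 29 without LF-C-1, 68 and 31 without HF-KO-1, 54 and 21 without HF-KO-6, 175 and 53 without HF-KO-3, 135 and 46 without HF-KO-4, and 139 and 41 without HF-KO-5. They numbered 360 and 388 without LF-C-3 and 201 and 256 without LF-C-4. With LF-C-2 and HF-KO-2 left out together, an alternative chosen after the data were seen, 533 genes were higher and 250 lower, 258 and 134 of them shared with the calls on all 10 libraries. With library size as the sole scaling, the median over all genes moved from 0.02 to 0.33 (log2), with 597 higher and 57 lower genes. Under that scaling the medians of 15 of 44 gene lists changed sign, those of fatty acid uptake, lipogenesis, fatty acid oxidation, cholesterol synthesis, sterol efflux, insulin signalling, xenobiotic metabolism, sex-biased genes, acute phase proteins, both stress responses, and stellate, Kupffer, bile duct and endothelial cells.

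**Figure D1:**
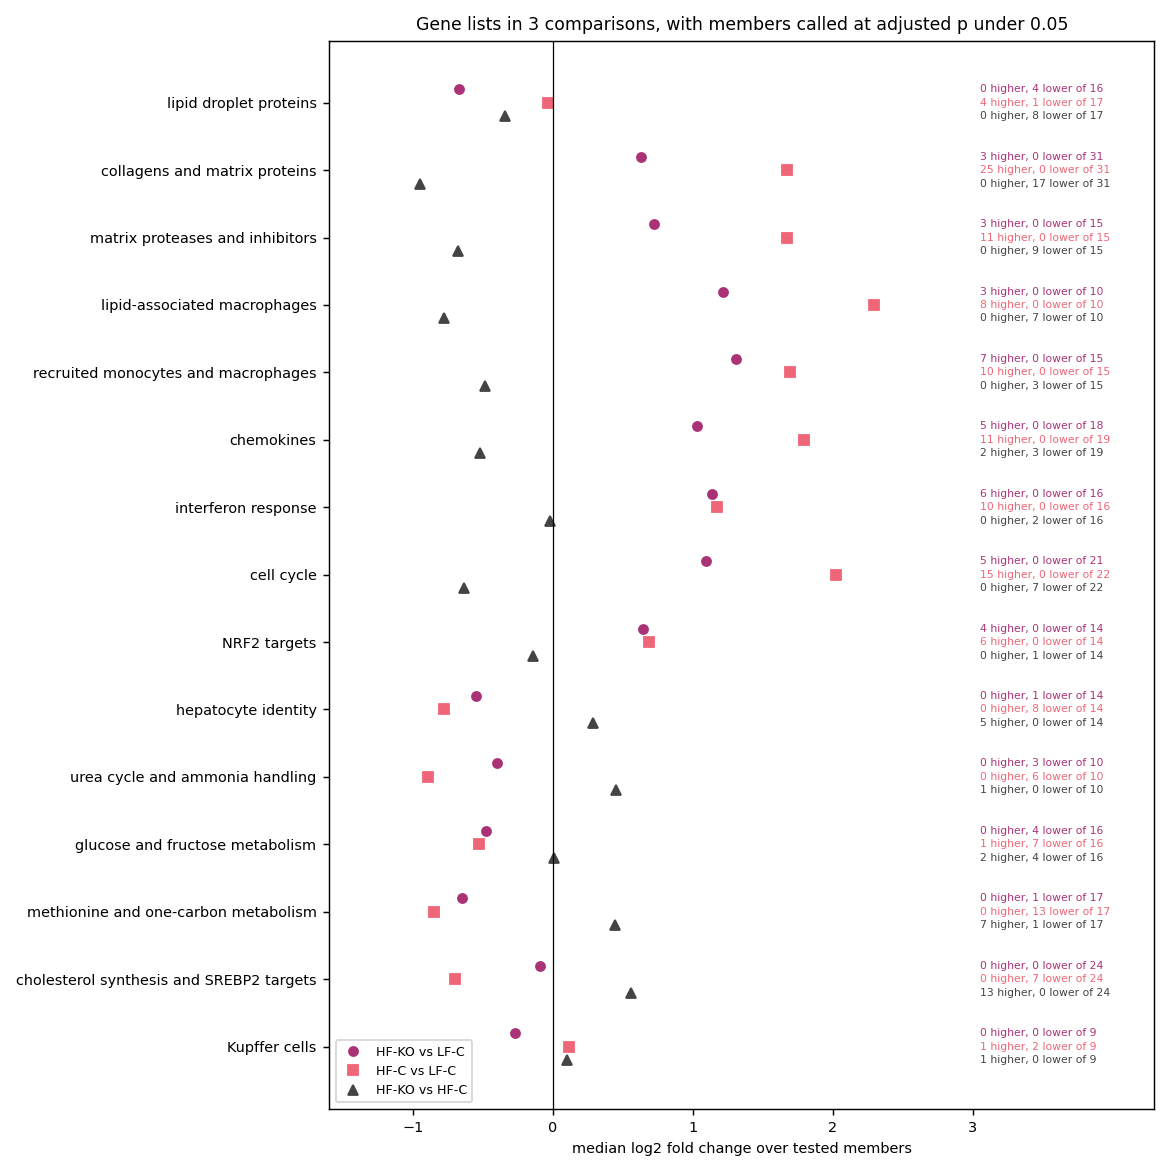
The horizontal axis is the median log2 fold change over the tested members of 15 gene lists, for HF-KO vs LF-C (circles), HF-C vs LF-C (squares) and HF-KO vs HF-C (triangles), and the text at the right counts members called. The lists of lipid-associated macrophages, recruited monocytes and macrophages, interferon response and cell cycle lie above 0 in both comparisons with LF-C. In HF-KO vs LF-C the Kupffer cell list lies at -0.27 and the lipid droplet list at -0.68.

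No lipid droplet gene passed as higher in HF-KO than in LF-C, and several were lower. Of 16 tested members of the lipid droplet list (18 listed), 0 were called higher and 4 lower, with a median of -0.68; at an unadjusted p under 0.05, and with DESeq2 and limma-voom, 0 were higher too. In HF-C vs LF-C 4 of 17 were called higher and 1 lower, and in HF-KO vs HF-C 0 were higher and 8 lower. Cidec (ENSMUSG00000030278, chromosome 6, 113424634 to 113435760) promotes the fusion of droplets into larger ones. It stood at 8.26, 16.4, 6.94 and 9.98 CPM in the LF-C libraries, at 172, 219.8, 126, 212 and 178 in HF-C and at 7.61 to 20.4 (median 11.2) in HF-KO. The HF-KO libraries thus overlapped LF-C and all lay below HF-C. Its change from LF-C was log2 0.26 ± 0.32 (adjusted p = 0.635), against 4.13 ± 0.30 in HF-C vs LF-C and -3.83 ± 0.25 in HF-KO vs HF-C (adjusted p = 1.76e-06). Cidea, a relative of Cidec, was at 0.204, 1.58, 0.0680 and 0 CPM in LF-C, 34.3 ± 12.1 in HF-C and at most 0.297 in HF-KO, too low in this pair to be tested. Plin2, the perilipin that coats droplets in most cells, differed from LF-C by log2 -0.07 ± 0.18 (adjusted p = 0.841) and fell by 0.77 from HF-C to HF-KO (adjusted p = 0.00676), but the sign of its difference from LF-C turned without LF-C-2 (log2 0.007) and with library size as the sole scaling (log2 0.28).

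Plin4 (ENSMUSG00000002831, chromosome 17, 56100591 to 56109803), another perilipin, was at 16.5, 29.3, 20.6 and 34.1 CPM in the LF-C libraries, at 132, 103, 119.6, 137 and 96.1 in HF-C and at 2.96 to 7.63 (median 5.92) in HF-KO. LF-KO stood at 7.03 to 22.7 CPM (median 9.98), overlapping LF-C and HF-KO. LF-C, HF-C and HF-KO did not overlap each other, with HF-C above LF-C and HF-KO below it. The log2 fold change was -2.11 ± 0.28 against LF-C (adjusted p = 0.00576), -4.31 ± 0.20 against HF-C (adjusted p = 8.46e-08) and 2.23 ± 0.24 in HF-C vs LF-C. Plin4 overlaps Hdgfrp2 on the other strand, and the libraries carry no strand. Pnpla2, the main triglyceride lipase of droplets, was lower than in LF-C with no overlap (log2 -1.28 ± 0.31, adjusted p = 0.044). G0s2, an inhibitor of that lipase, was at 254, 252, 130.5 and 264 CPM in LF-C and 73.2 to 164 (median 94.6) in HF-KO (log2 -1.15 ± 0.27), with LF-C-3 within the HF-KO range. Fitm2, a membrane protein that aids droplet formation, changed by -0.99 ± 0.19 with no overlap between the groups. The Plin4 call was kept without any single library. The Pnpla2 call was lost without LF-C-1 or -2 or HF-KO-1, -2, -3, -4, -5 or -6 at an adjusted p of 0.0558 to 0.119, the Fitm2 call without LF-C-1 or HF-KO-1 or -6 at an adjusted p of 0.0522 to 0.0686 and the G0s2 call without LF-C-1 or -4 or HF-KO-1, -3, -4, -5 or -6 at an adjusted p of 0.0582 to 0.11. The count of lower members was 1 without LF-C-1, HF-KO-1 or -6, 2 without HF-KO-3, -4 or -5, and 7 without LF-C-3. With library size as the sole scaling it was 1 at a median of -0.30, and Pnpla2, G0s2 and Fitm2 lost their calls.

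**Figure D2:**
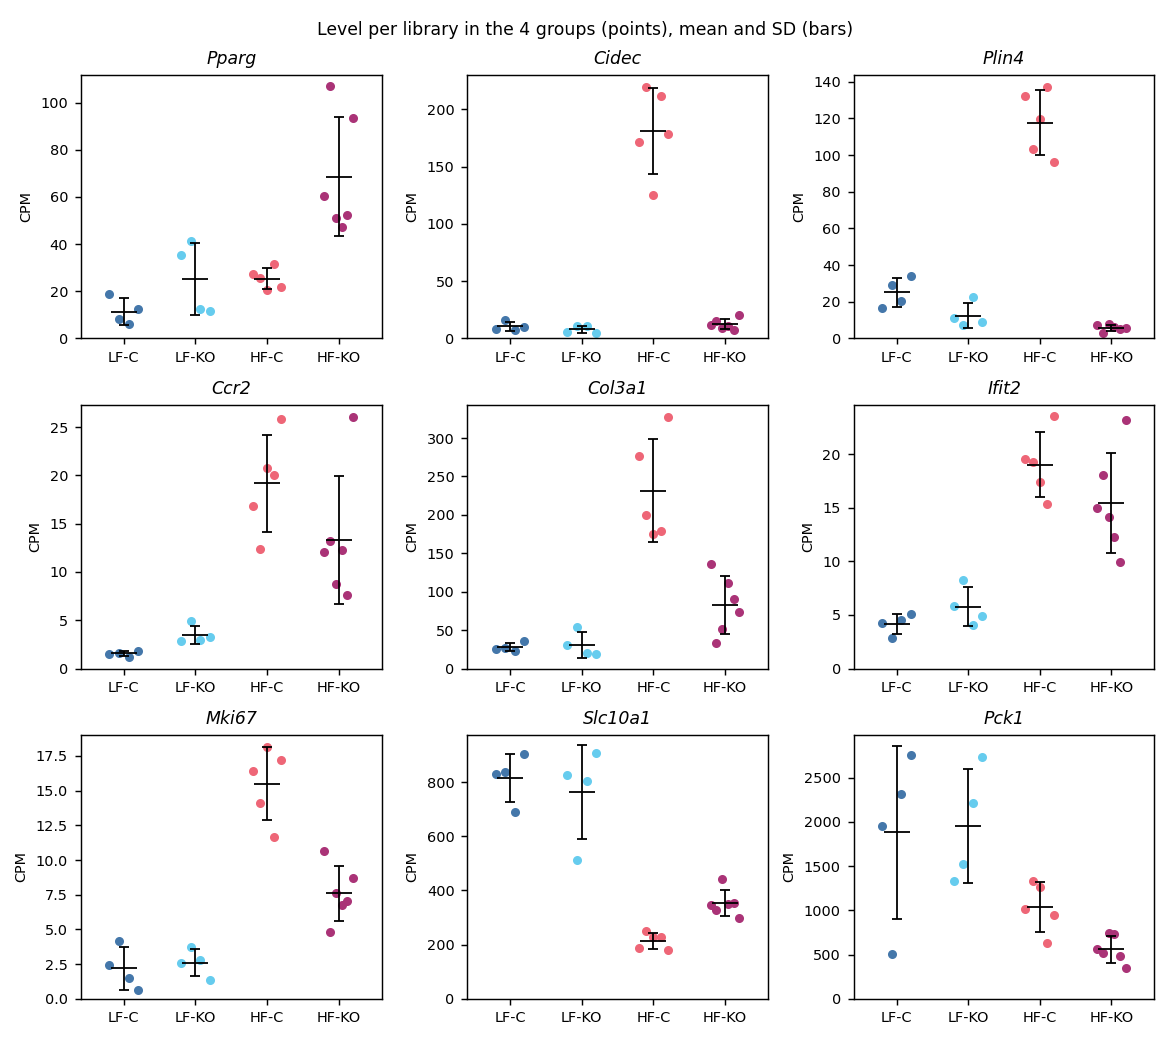
Level in CPM (linear axis) of 9 genes in every library of the 4 groups, with bars for the mean and SD. Cidec in HF-KO overlaps LF-C and Plin4 lies below it, Ccr2 and Ifit2 overlap HF-C, and the HF-KO means of Col3a1, Mki67 and Slc10a1 lie between those of LF-C and HF-C.

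Other genes of fat handling gave a mixed picture. Cd36, a fatty acid carrier of the cell surface, was at 102, 58.0, 96.0 and 112 CPM in LF-C and 179 to 347 (median 235) in HF-KO, with no overlap. Its rise was log2 1.46 ± 0.26 (adjusted p = 0.0166), beside 1.67 ± 0.21 in HF-C vs LF-C, and HF-KO vs HF-C gave -0.18 ± 0.17 (adjusted p = 0.496). The Cd36 call was lost without LF-C-1 at an adjusted p of 0.051. Cd36 was the only called gene among 16 tested of fatty acid uptake and binding. Scd2, a fatty acid desaturase, rose from 6.81 ± 1.30 to 25.2 ± 7.31 CPM (log2 1.89 ± 0.28, adjusted p = 0.00766), below the HF-C level (HF-KO vs HF-C -0.76 ± 0.20, adjusted p = 0.0275), a call lost without HF-C-1, -2, -4 or -5 or HF-KO-3 at an adjusted p of 0.0562 to 0.0769. It was the only called gene of 16 in de novo lipogenesis, and Srebf1, the transcription factor that drives that pathway, gave 0.04 ± 0.37 (adjusted p = 0.96), with a sign that turned in 8 of 19 alternatives (-0.14 to -0.005). Of 9 genes of triglyceride synthesis, Agpat6 (now named Gpat4) was lower (log2 -0.94 ± 0.21), a call lost without LF-C-1 or -4 or HF-KO-1, -3, -4, -5 or -6 at an adjusted p of 0.0548 to 0.101. Of 22 genes of fatty acid oxidation and ketogenesis 0 were called, at a median of -0.20, with 2 higher and 7 lower at an unadjusted p under 0.05, 4 lower with DESeq2 and 0 with limma-voom. Of 24 genes of cholesterol synthesis 0 were called against LF-C, at a median of -0.10 (1 higher and 4 lower unadjusted, 1 lower with DESeq2, 0 with limma-voom), while 7 fell in HF-C vs LF-C and 13 rose in HF-KO vs HF-C. These counts moved with single libraries. Fatty acid uptake gave 4 higher and 1 lower without LF-C-2, 2 higher without LF-C-3 or -4 or with library size as the sole scaling, and 0 without LF-C-1. Triglyceride synthesis gave 2 lower without LF-C-2 or -3 and 0 with that scaling. Without LF-C-3, fatty acid oxidation gave 1 higher and 1 lower and cholesterol synthesis 2 lower, and without LF-C-4 cholesterol synthesis gave 1 lower.

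Several genes of recruited monocytes and macrophages were higher in HF-KO than in LF-C. Their summed level was 279.7 to 714.7 CPM in LF-C, at most 353.2 without LF-C-2, and 645.8 to 1064 CPM in HF-KO. Of 15 tested members 7 were called higher and 0 lower in HF-KO, against 2.07% and 1.08% of all genes, with a median of 1.31 beside 0.02 over all genes. HF-C vs LF-C gave 10 higher at a median of 1.70, and HF-KO vs HF-C gave 3 lower at -0.49. Ccr2 (ENSMUSG00000049103, chromosome 9, 124101950 to 124113557), the receptor through which monocytes follow Ccl2, was at 1.53, 1.66, 1.23 and 1.86 CPM in LF-C and 7.61 to 26.1 (median 12.2) in HF-KO. All HF-KO libraries lay above LF-C, and 4 of the 6 lay below every HF-C library, whose values were 16.8, 12.4, 20.7, 20.04 and 25.9. The log2 fold change was 3.09 ± 0.38 (adjusted p = 0.00378), and HF-KO vs HF-C gave -0.49 ± 0.28 (adjusted p = 0.267, and 0.0361 without HF-KO-6). Cx3cr1, the fractalkine receptor of monocyte-derived cells, rose from 0.204, 1.03, 0.680 and 0.599 CPM in LF-C to 3.13 to 11.9 (median 7.40) in HF-KO (log2 3.53 ± 0.52, adjusted p = 0.00766), although its position overlaps Wdr48, Gorasp1 and Csrnp1. Mpeg1, a pore-forming protein of macrophages, rose from 89.6 ± 19.6 to 248 ± 38.1 CPM (log2 1.47 ± 0.22, adjusted p = 0.00766). Clec7a, the receptor for fungal glucans, rose by 2.31 ± 0.49, Itgam, the CD11b chain, by 1.46 ± 0.32, Cybb, the NADPH oxidase subunit, by 1.33 ± 0.22 and Tlr2, a receptor for bacterial lipoproteins, by 1.41 ± 0.29. LF-KO, also labelled healthy, lay above LF-C without overlap for Ccr2 (2.87 to 4.89 CPM) and Cx3cr1 (1.27 to 3.73 CPM). For Mpeg1, Clec7a, Itgam, Cybb and Tlr2 the LF-KO libraries overlapped those of LF-C. Csf1r and Cd68, which resident macrophages carry too, gave -0.14 ± 0.31 and 0.07 ± 0.32 and were not called; the sign turned for Csf1r without LF-C-2 (log2 0.24) or with library size as the sole scaling (0.30), and for Cd68 without LF-C-3, LF-C-4 or HF-KO-6 (-0.08, -0.12 and -0.03). Ccr2, Cx3cr1 and Mpeg1 kept their calls without any single library, while calls were lost for Clec7a without LF-C-1 or HF-KO-1 or -6, for Itgam without LF-C-1 or HF-KO-1, -4 or -6, for Cybb without LF-C-1 and for Tlr2 without LF-C-1 or HF-KO-1, -4 or -6, at adjusted p of 0.0502 to 0.0961. The list count was 3 without LF-C-1, 4 without HF-KO-1 or -6, and 12 without LF-C-2.

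Lipid-associated macrophages are the scavenging macrophages that gather around fat-laden cells. Of their 10 markers 3 were called higher in HF-KO vs LF-C, at a median of 1.21, while HF-C vs LF-C gave 8 higher at 2.29 and HF-KO vs HF-C gave 7 lower at -0.78. Trem2, the lipid receptor that names these cells, was at 3.77, 4.50, 0.749 and 1.20 CPM in LF-C and 7.86 to 16.0 (median 9.80) in HF-KO, all above LF-C. It rose by 2.10 ± 0.46 (adjusted p = 0.0305) and was lower than in HF-C (log2 -0.85 ± 0.19, adjusted p = 0.0162). Itgax, the CD11c chain, gave 1.82 ± 0.38 and -1.21 ± 0.24 in the same fits (adjusted p = 0.0286 and 0.0091). Gpnmb, a lysosomal membrane glycoprotein, was at 1.83, 11.9, 1.02 and 0.399 CPM in LF-C and 10.3 to 31.6 (median 21.8) in HF-KO, overlapping through LF-C-2, and did not pass against LF-C (log2 2.38 ± 0.73, adjusted p = 0.0863; 4.25 and 0.00273 without LF-C-2). Against HF-C it fell by 1.67 (adjusted p = 0.00171). The Trem2 call was lost without LF-C-1 or -4 or HF-KO-1, -4, -5 or -6 at an adjusted p of 0.0508 to 0.0815 and the Itgax call without LF-C-1 or HF-KO-1, -4, -5 or -6 at an adjusted p of 0.0539 to 0.0816. The count of 3 became 6 without LF-C-2, 7 with library size as the sole scaling and 0 without LF-C-1, HF-KO-1, -4, -5 or -6.

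The markers of Kupffer cells, the resident macrophages of the liver, gave 0 calls of 9 in HF-KO vs LF-C (2 higher unadjusted, 0 with DESeq2, 0 with limma-voom), at a median of -0.27 that was 0.31 without LF-C-2 with 1 higher, and 0.10 with library size as the sole scaling with 2 higher. Their summed level was 333.1 to 1017 CPM in LF-C, at most 463.7 without LF-C-2, and 413.1 to 899.2 CPM in HF-KO. Clec4f, which within the liver marks Kupffer cells, gave -0.41 ± 0.37 (adjusted p = 0.511), but 0.20 without LF-C-2 and 0.03 with library size as the sole scaling. Cd163, the scavenger receptor for haemoglobin, was at 14.7, 13.9, 37.8 and 30.1 CPM in LF-C, at 0.846, 3.43, 1.30, 3.83 and 1.12 in HF-C and 3.77 to 28.1 (median 11.6) in HF-KO. The HF-KO libraries overlapped LF-C, and all but HF-KO-6 lay above every HF-C library. Against HF-C it was higher by log2 2.74 ± 0.51 (adjusted p = 0.00686), and against LF-C it did not pass (log2 -0.81 ± 0.45, adjusted p = 0.308).

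Several chemokines were higher in HF-KO, with 5 of 18 tested members called and 0 lower, at a median of 1.03. HF-C vs LF-C gave 11 of 19 higher at a median of 1.80. Ccl2, which draws in monocytes through Ccr2, was at 0.510, 1.34, 0.476 and 0.798 CPM in LF-C and 3.54 to 8.62 (median 4.62) in HF-KO, with no overlap (log2 2.73 ± 0.40, adjusted p = 0.00766). It was lower than in HF-C (log2 -0.80 ± 0.23, adjusted p = 0.0467), a call lost without HF-C-1, -3, -4 or -5 or HF-KO-1, -3, -4 or -5 at an adjusted p of 0.0528 to 0.123. Ccl3 rose by 3.29 ± 0.78, Cxcl2, a neutrophil attractant, by 3.02 ± 0.56, Cxcl14 by 1.66 ± 0.37 and Cxcl10, which draws in activated T cells, by 2.04 ± 0.43. Ccl3 was at 0 to 0.395 CPM in LF-C and 0.307 to 1.93 in HF-KO, which overlap. Cxcl2 was at 0 to 0.316 CPM in LF-C and 0.920 to 2.26 in HF-KO. At levels this low the sizes of these 2 folds are uncertain. The position of Cxcl10 overlaps Art3 on the other strand. Il1rn, the natural antagonist of the interleukin 1 receptor, was the only called gene among 14 of cytokines and the inflammasome. It rose from 5.40, 4.66, 4.97 and 3.53 CPM in LF-C to 10.3 to 21.3 (median 13.8) (log2 1.74 ± 0.27, adjusted p = 0.0085). Tnf was at 0.308 ± 0.319 and 1.29 ± 0.481 CPM and did not pass (adjusted p = 0.0918). Calls of Ccl2 and Il1rn were kept without any single library, while calls were lost for Ccl3 without LF-C-1, -3 or -4 or HF-KO-1, -2, -3, -4 or -6, for Cxcl2 without HF-KO-6, for Cxcl14 without LF-C-1 or HF-KO-1, -3, -4, -5 or -6 and for Cxcl10 without LF-C-1 or HF-KO-1 or -6, at adjusted p of 0.0548 to 0.106. The chemokine count was 2 without LF-C-1 or HF-KO-1, 3 without HF-KO-3 or -4, 1 without HF-KO-6 and 10 without LF-C-2. It was 9 with library size as the sole scaling, and without HF-KO-2 it was 4 with 1 lower. The cytokine list gave 2 higher without LF-C-3, 3 without HF-KO-2 and 4 with that scaling.

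Several interferon response genes, which cells switch on when they sense virus or free nucleic acid, were higher in HF-KO than in LF-C. Of 16 tested members 6 were called higher and 0 lower than in LF-C, at a median of 1.14, beside 10 higher at 1.17 in HF-C vs LF-C. HF-KO vs HF-C gave 0 higher and 2 lower at a median of -0.02. The 300 bases around the start of these genes were searched for the sequence that factors of this response bind. The interferon-stimulated response element was searched on both strands as GAAA, any pair of bases, and GAAA again, and overlapping matches were all kept. In RefSeq promoters (GRCm38.p6, from 250 bases before to 50 after each start), 12 of the 16 members had an entry and 7 of these held a match, against 3.99% of 27025 genes. Of the 7, Gbp3 and Rsad2 were called, while Ifit1, Ifit3, Isg15, Oas1a and Gbp2 did not pass (edgeR adjusted p of 0.0672 to 0.261). The other called members, Ifit2, Ifi44, Mx1 and Usp18, had no match or no entry. The list was written as interferon response genes, so the share of matches says nothing of HF-KO. Stretches of a pair of called members, Gbp3 and Rsad2, and of a pair that did not pass, Ifit1 and Isg15, are shown to set the element in view, with matches in capitals on the strand of the gene.
Gbp3 (chr3:142559979-142560034, plus strand): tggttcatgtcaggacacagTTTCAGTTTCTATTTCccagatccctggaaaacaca
Rsad2 (chr12:26456543-26456592, minus strand): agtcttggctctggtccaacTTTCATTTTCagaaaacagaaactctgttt
Ifit1 (chr19:34640765-34640833, plus strand): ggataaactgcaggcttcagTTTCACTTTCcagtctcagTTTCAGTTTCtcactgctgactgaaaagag
Isg15 (chr4:156200855-156200916, minus strand): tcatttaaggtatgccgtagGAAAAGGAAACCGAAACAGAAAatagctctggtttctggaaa
In Gbp3 and Isg15 neighbouring matches overlap and are printed as 1 run of capitals. These are matches of letters, and binding was not measured.

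Gbp3, a GTPase of cell defence, was at 6.62, 6.79, 7.35 and 9.18 CPM in LF-C and 15.2 to 29.2 (median 22.2) in HF-KO. All HF-KO libraries lay above LF-C, at log2 1.52 ± 0.25 (adjusted p = 0.0115), and HF-KO vs HF-C gave -0.02 ± 0.19 (adjusted p = 0.958). LF-KO was at 12.5 to 17.1 CPM for Gbp3, above LF-C and overlapping HF-KO. For the other called members of the list LF-KO overlapped LF-C. The position of Gbp3 overlaps Gbp5, a related gene on the same strand. Rsad2, the antiviral protein viperin, rose by 1.27 ± 0.25 (adjusted p = 0.0237). Ifit2, which binds RNA, rose from 4.28, 2.84, 4.56 and 5.06 CPM in LF-C to 9.94 to 23.1 (median 14.5) in HF-KO (log2 1.88 ± 0.28, adjusted p = 0.00766), with HF-C at 19.5, 19.3, 17.4, 15.4 and 23.6. Ifi44, a member with no match in this window, was at 2.55, 5.37, 2.31 and 4.19 CPM in LF-C and 10 to 17.1 (median 12.1) in HF-KO, with no overlap (log2 1.83 ± 0.28, adjusted p = 0.00867). Mx1, another antiviral GTPase, rose by 1.90 ± 0.32 and Usp18, which dampens the interferon receptor, by 1.19 ± 0.28. Ifit1 (log2 1.31 ± 0.46, adjusted p = 0.125) and Isg15 (log2 0.98 ± 0.43, adjusted p = 0.198) did not pass, although Isg15 did without LF-C-2 (log2 1.56, adjusted p = 0.0435). HF-KO vs HF-C gave log2 -0.27 ± 0.20 for Ifit2 and 0.17 ± 0.16 for Ifi44 (adjusted p = 0.371 and 0.489), which does not show equal levels. Ifit2, Ifi44, Gbp3 and Mx1 kept their calls without any single library, while calls were lost for Rsad2 without LF-C-1 or HF-KO-1 or -6 and for Usp18 without LF-C-1 or -3 or HF-KO-1, -2, -3, -4, -5 or -6, at adjusted p of 0.0528 to 0.109. The list count was 11 without LF-C-2 and 12 with library size as the sole scaling.

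Many genes of scar matrix were lower in HF-KO than in HF-C, and some were called higher than in LF-C. Of 31 collagens and matrix proteins 3 were called higher and 0 lower in HF-KO vs LF-C, against 2.07% and 1.08% of all genes. Their median was 0.63, beside 0.02 over all genes. At an unadjusted p under 0.05, 12 were higher and 0 lower, where 3085 of all 13641 genes passed. HF-C vs LF-C gave 25 higher at a median of 1.67, against 10.6% of all genes. HF-KO vs HF-C gave 17 lower at -0.95, against 5.43%. Col3a1 (ENSMUSG00000026043, chromosome 1, 45311538 to 45349706), a fibrillar collagen chain, was at 26.0, 26.6, 23.5 and 35.7 CPM in LF-C, at 276, 199.9, 176, 179 and 328 in HF-C, and 136, 33.0, 50.9, 112, 90.1 and 74.2 in the 6 HF-KO mice in numbered order. HF-KO-2 lay within the LF-C range and the other 5 between LF-C and HF-C. Its log2 fold change was 1.57 ± 0.36 against LF-C (adjusted p = 0.035) and -1.46 ± 0.30 against HF-C (adjusted p = 0.0106). Col1a1, the main chain of type I collagen, was at 19.1, 21.5, 8.91 and 15.9 CPM in LF-C and 72.3, 5.74, 14.5, 53.8, 37.5 and 25.5 in the 6 HF-KO mice in numbered order. The groups overlapped through HF-KO-2 and HF-KO-3, and it did not pass against LF-C (log2 1.10 ± 0.55, adjusted p = 0.254), while it was lower than in HF-C (log2 -1.98 ± 0.46, adjusted p = 0.0177). Lum, a proteoglycan of collagen fibrils, rose by 1.03 ± 0.23 and Thbs1, a matrix protein that activates TGF-β, by 1.57 ± 0.36. The Col3a1 call was lost without LF-C-1, -2 or -3 or HF-KO-1, -4, -5 or -6 at an adjusted p of 0.0502 to 0.1, the Lum call without LF-C-1 or -3 or HF-KO-1, -3, -4, -5 or -6 at an adjusted p of 0.0514 to 0.102 and the Thbs1 call without LF-C-1 or -4 or HF-KO-1, -3, -4, -5 or -6 at an adjusted p of 0.0548 to 0.1. The count of 3 was 5 without HF-KO-2 or with library size as the sole scaling, 1 without LF-C-3 or HF-KO-3, and 0 without LF-C-1, HF-KO-1, -4, -5 or -6.

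Proteases that cut matrix were among the largest rises. Of 15 matrix proteases and inhibitors 3 were higher in HF-KO vs LF-C at a median of 0.72, against 11 in HF-C vs LF-C at 1.67, and 9 were lower in HF-KO vs HF-C. Mmp13 (ENSMUSG00000050578, chromosome 9, 7272514 to 7283333), a collagenase, was at 0, 0.0790, 0.340 and 0.466 CPM in LF-C and 3.31 to 9.91 (median 5.05) in HF-KO, with no overlap. The rise was log2 4.48 ± 0.57 (adjusted p = 0.00462), beside 4.92 ± 0.68 in HF-C vs LF-C and -0.41 ± 0.37 in HF-KO vs HF-C (adjusted p = 0.478). Mmp12, the elastase of macrophages, rose from 2.04, 5.69, 1.16 and 0.932 CPM in LF-C to 17.8 to 49.2 (median 24.6) in HF-KO (log2 3.63 ± 0.53, adjusted p = 0.00766), and HF-KO vs HF-C gave -0.64 ± 0.23 (adjusted p = 0.0961, and 0.0269 without HF-KO-2 or 0.0287 without HF-KO-6). Plau, the plasminogen activator urokinase, rose by 1.47 ± 0.23 (adjusted p = 0.00867) and was lower than in HF-C (log2 -0.68 ± 0.14, adjusted p = 0.01). These calls against LF-C were kept without any single library. Timp1, an inhibitor of such proteases whose position overlaps Syn1, did not pass against LF-C (log2 2.35 ± 0.71, adjusted p = 0.0845) but did without LF-C-2 (log2 3.50, adjusted p = 0.0243). Of 16 fibrogenic signals, Pdgfc was called (log2 1.18 ± 0.28, lost without LF-C-1, -2 or -4 or HF-KO-1, -4, -5 or -6 at an adjusted p of 0.0517 to 0.107), against 10 in HF-C vs LF-C; 2 were higher without HF-KO-2 and 3 with library size as the sole scaling. Of 14 stellate cell markers, Lrat, which stores vitamin A as esters, was called higher (log2 0.91 ± 0.23, lost without LF-C-1, -2 or -4 or HF-KO-1, -2, -3, -4, -5 or -6 at an adjusted p of 0.0525 to 0.13). It was the only call of that list, against 2.07% of all genes higher and 1.08% lower. The list median was -0.07, with 3 members higher and 3 lower at an unadjusted p under 0.05. Acta2, the actin of activated stellate cells and smooth muscle, was at 3.98, 58.9, 4.08 and 7.32 CPM in LF-C and 3.39 to 6.64 (median 5.00) in HF-KO. LF-C-2 stood far above the rest, and Acta2 did not pass (log2 -1.88 ± 0.65, adjusted p = 0.114), at -0.03 without LF-C-2.

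Several cell cycle genes were higher in HF-KO than in LF-C, and several were lower than in HF-C. Of 21 tested members 5 were called higher and 0 lower in HF-KO vs LF-C, at a median of 1.09. HF-C vs LF-C gave 15 of 22 higher at 2.03, and HF-KO vs HF-C 7 lower at -0.64. Mki67, the proliferation marker, was at 2.45, 4.19, 1.497 and 0.599 CPM in LF-C and 4.79 to 10.7 (median 7.34) in HF-KO. No HF-KO library fell within the LF-C range (log2 1.82 ± 0.43, adjusted p = 0.0413), and all lay below HF-C (log2 -0.99 ± 0.18, adjusted p = 0.00558). Ccna2, cyclin A2, rose by 2.63 ± 0.51, Ccnb1, cyclin B1, by 2.48 ± 0.54, Cdc20, an activator of the anaphase complex, by 1.81 ± 0.37 and Cenpf, a kinetochore protein, by 2.09 ± 0.48. Ccna2 and Cdc20 overlap Exosc9 and Elovl1 on the other strand, each with more reads than the gene itself. In the leave-one-out fits, calls were lost for Mki67 without LF-C-1 or -3 or HF-KO-1, -3, -4, -5 or -6, for Ccna2 without LF-C-1 or HF-KO-1 or -6, for Ccnb1 without LF-C-1 or HF-KO-1 or -6, for Cdc20 without LF-C-1 or HF-KO-1 or -6 and for Cenpf without LF-C-1, -2 or -4 or HF-KO-1, -2, -3, -5 or -6, at adjusted p of 0.0514 to 0.104. In the same RefSeq windows, the CHR element of cell cycle genes (TTTGAA, both strands) was found in 10 of 19 members with an entry, against 20.2% of all genes. Of the called members, Mki67, Cdc20 and Cenpf held it. Ccnb1 had an entry without a match, and Ccna2 had no match or no entry. The list was written as cell cycle genes, so this share says nothing of HF-KO. The count of 5 was 0 without LF-C-1, HF-KO-1 or -6 and 3 without HF-KO-5, and 9 with library size as the sole scaling.

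Several stress genes were higher in HF-KO than in LF-C. Of 14 targets of NRF2, the factor that answers oxidative stress, 4 were called higher at a median of 0.64, beside 6 at 0.69 in HF-C vs LF-C, and 1 was lower in HF-KO vs HF-C. Gsta1, a glutathione transferase, was at 11.2, 9.56, 3.20 and 1.53 CPM in LF-C, at 48.9, 39.5, 33.0, 53.8 and 28.9 in HF-C and 21.6 to 60.3 (median 49.3) in HF-KO. The HF-KO libraries lay above LF-C and overlapped HF-C, at log2 2.82 ± 0.52 (adjusted p = 0.0178) and 0.15 ± 0.24 against HF-C (adjusted p = 0.696). Gstm3, another transferase, rose by 2.01 ± 0.37 and Srxn1, which repairs peroxiredoxins, by 0.99 ± 0.21. Both transferases have close paralogs with which reads may be shared. Slc7a11, the cystine importer, was at 0, 0.0790, 0 and 0 CPM in LF-C and 0.174 to 0.874 (median 0.778) in HF-KO, so low that its fitted change of 4.61 ± 0.85 is not a measure of size. For the other 3 genes of the list, calls were lost for Gstm3 without HF-KO-6, for Srxn1 without LF-C-1 or HF-KO-1, -4, -5 or -6 and for Slc7a11 without LF-C-1, at adjusted p of 0.0553 to 0.0789. The NRF2 count was 2 without LF-C-1, HF-KO-1, -4 or -5 and 1 without HF-KO-6. Eda2r, a death receptor of the TNF family and a p53 target, was at 0.408, 0.237, 0.612 and 1.26 CPM in LF-C and 2.70 to 9.05 (median 4.25) in HF-KO, with no overlap (log2 3.04 ± 0.50, adjusted p = 0.0122). LF-KO stood at 1.49 to 6.85 CPM for Eda2r, above LF-C and overlapping HF-KO. HF-KO vs HF-C gave 0.28 ± 0.33 for Eda2r (adjusted p = 0.587), and it was the called gene among 8 p53 targets. Atf3, a stress-induced transcription factor, was the called gene among 9 of the integrated stress response. It rose from 1.63, 2.13, 1.36 and 1.60 CPM in LF-C to 5.47 to 10.9 (median 6.68) (log2 2.20 ± 0.30, adjusted p = 0.00744) and was lower than in HF-C (log2 -0.91 ± 0.20, adjusted p = 0.0167). The list of Eda2r gave 2 higher without LF-C-1 or -3 and 3 with library size as the sole scaling, and that of Atf3 gave 2 higher without LF-C-2 or with that scaling, and 1 lower beside Atf3 without LF-C-4. The unfolded protein response, 11 genes, gave 0 calls, 0 also at an unadjusted p under 0.05 and with DESeq2 and limma-voom.

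Some genes of hepatocyte function were lower in HF-KO than in LF-C. Slc10a1 (ENSMUSG00000021135, chromosome 12, 80953185 to 80968079), which takes up bile acids from blood, was at 829, 838, 689.6 and 904 CPM in LF-C, at 186, 249.7, 228, 229.5 and 180.1 in HF-C and 299 to 444 (median 348) in HF-KO. The 3 groups did not overlap, and HF-KO lay between the others. Its log2 fold change was -1.21 ± 0.18 against LF-C (adjusted p = 0.00766, kept without any single library) and 0.75 ± 0.13 against HF-C (adjusted p = 0.00457). It was the called gene among 19 of bile acid synthesis and transport in HF-KO vs LF-C, where HF-C vs LF-C gave 7 lower. The count was 2 lower without LF-C-2, LF-C-3 or HF-KO-2, and 1 higher joined it without LF-C-4. Cyp7a1, the rate-limiting enzyme of bile acid synthesis, was at 79.7, 14.9, 19.6 and 318 CPM in LF-C and 160.3 to 608 (median 314) in HF-KO. LF-C-4 lay within the HF-KO range and the other LF-C libraries below it, and it did not pass (log2 1.68 ± 0.72, adjusted p = 0.194) but did without LF-C-4 (log2 3.19, adjusted p = 0.0296). It was higher than in HF-C (log2 1.15 ± 0.28, adjusted p = 0.0221), a call lost without HF-C-1, -4 or -5 at an adjusted p of 0.0559 to 0.0641. Hpd, an enzyme of tyrosine breakdown, was the called gene among 14 of hepatocyte identity (log2 -1.37 ± 0.31, lost without LF-C-1 or HF-KO-1, -3, -4, -5 or -6 at an adjusted p of 0.0654 to 0.101). Alb did not pass (log2 -0.87 ± 0.23, adjusted p = 0.0607) but did without LF-C-3 or LF-C-4 (adjusted p = 0.0415 and 0.0446), and 2 of the list were lower without LF-C-2, -3 or -4. In HF-C vs LF-C 8 of the 14 were lower, and in HF-KO vs HF-C 5 were higher.

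Of 10 genes of the urea cycle and ammonia handling 3 were lower in HF-KO vs LF-C, at a median of -0.40, beside 6 at -0.89 in HF-C vs LF-C. Asl, which cleaves argininosuccinate, was at 803, 1651, 489 and 701 CPM in LF-C and 256 to 403 (median 284) in HF-KO, with no overlap (log2 -1.56 ± 0.30, adjusted p = 0.0219). Gls2, the liver glutaminase, which overlaps Spryd4, changed by -1.05 ± 0.20 and Ass1, which makes argininosuccinate, by -0.97 ± 0.23. The Asl call was lost without LF-C-1 or HF-KO-1 or -6 at an adjusted p of 0.0526 to 0.0678, the Gls2 call without LF-C-1 or HF-KO-6 at an adjusted p of 0.0632 to 0.0722 and the Ass1 call without LF-C-1 or -2 or HF-KO-1, -3, -4, -5 or -6 at an adjusted p of 0.062 to 0.117. The count was 0 without LF-C-1 or HF-KO-6 and 1 without HF-KO-1 or with library size as the sole scaling. In glucose and fructose metabolism 4 of 16 genes were lower at a median of -0.48, beside 7 lower and 1 higher in HF-C vs LF-C. Pck1, which starts glucose synthesis, was at 1954, 502, 2314 and 2758 CPM in LF-C and 343 to 739 (median 539) in HF-KO. LF-C-2 lay within the HF-KO range and the other 3 LF-C libraries above it. The log2 fold change was -1.74 ± 0.37 (adjusted p = 0.0298), and it was also lower than in HF-C (log2 -0.85 ± 0.22, adjusted p = 0.0274, lost without HF-C-1, -2, -3 or -5 or HF-KO-5 at an adjusted p of 0.05 to 0.0744). G6pc, which releases free glucose, changed by -1.74 ± 0.43, Gys2, the liver glycogen synthase, by -1.18 ± 0.22 and Fbp1, fructose bisphosphatase, by -0.79 ± 0.20. Here calls were lost for Pck1 without LF-C-1 or -4 or HF-KO-1, -2, -5 or -6, for G6pc without LF-C-1, -3 or -4 or HF-KO-1, -2, -3, -4, -5 or -6, for Gys2 without LF-C-1 or HF-KO-1 or -6 and for Fbp1 without LF-C-1 or -2 or HF-KO-1, -3, -4, -5 or -6, at adjusted p of 0.0511 to 0.136. That list's count was 0 without LF-C-1, HF-KO-1 or -6, 1 without HF-KO-5 and 2 without LF-C-4, HF-KO-2, -3 or -4, and 1 member was higher without LF-C-2. With library size as the sole scaling it was 0 at a median of -0.14. Khk, which starts fructose breakdown, did not pass against LF-C (log2 -0.90 ± 0.35, adjusted p = 0.154) and was higher than in HF-C (log2 0.77 ± 0.17, adjusted p = 0.0157).

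In methionine and one-carbon metabolism 1 of 17 genes, Cbs, was lower in HF-KO vs LF-C at a median of -0.65, a call lost without LF-C-1 or -2 or HF-KO-1, -2, -3, -4, -5 or -6 at an adjusted p of 0.0787 to 0.129, where HF-C vs LF-C gave 13 lower and HF-KO vs HF-C gave 7 higher. The count was 3 without LF-C-3 and 0 with library size as the sole scaling. Of 15 genes of xenobiotic metabolism, Cyp3a11 was higher (log2 1.44 ± 0.28, adjusted p = 0.0219) and Cyp2e1 lower (-0.88 ± 0.21, adjusted p = 0.0426), beside 1 higher and 8 lower in HF-C vs LF-C. Both cytochromes belong to families whose members share sequence. Their calls were lost without LF-C-1 or HF-KO-1 or -6 at an adjusted p of 0.0544 to 0.0664 and without LF-C-1 or -4 or HF-KO-1, -3, -4, -5 or -6 at an adjusted p of 0.0706 to 0.118. That list gave 1 higher and 3 lower without LF-C-3, and 2 higher and 0 lower with library size as the sole scaling. Of 15 genes of the growth hormone axis and of sex-biased liver expression 3 were lower. Igfals, which carries IGF1 in blood, changed by -1.44 ± 0.30, Cyp2d9 by -1.16 ± 0.26 and Hsd3b5, a steroid enzyme higher in male livers, by -3.01 ± 0.66. Hsd3b5 was at 72.5, 238, 114 and 151 CPM in LF-C, at 0.113, 0.175, 0.570, 0.219 and 0.146 in HF-C and 1.51 to 41.1 (median 12.7) in HF-KO. The 3 groups did not overlap. Against HF-C it was higher by log2 6.17 ± 0.87 (adjusted p = 0.00134), and its call against LF-C was lost without LF-C-1 or HF-KO-2, -4 or -6 at an adjusted p of 0.0602 to 0.083. At the low HF-C levels of Hsd3b5, the size of its fold against HF-C is uncertain. The Igfals call was lost without LF-C-1 or HF-KO-1, -3, -4, -5 or -6 at an adjusted p of 0.0527 to 0.0806 and the Cyp2d9 call without LF-C-1 or HF-KO-1, -3, -4 or -6 at an adjusted p of 0.0559 to 0.0961. The count of 3 was 0 without LF-C-1, HF-KO-4 or -6 and 1 without HF-KO-1 or -3.

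By size, the 10 largest rises with no overlap between the groups were Sprr1a, Mmp13, Mmp12, Ephb2, Cx3cr1, Fam83a, Ccr2, Eda2r, Gsta1 and Ttc39a. The rule that named them required the groups not to overlap, so that is no finding. Sprr1a, a precursor of the cornified cell envelope, was at 0, 0.553, 0 and 0 CPM in LF-C and 1.39 to 9.17 (median 6.42) in HF-KO (log2 5.27 ± 0.94, adjusted p = 0.0169). With 3 LF-C libraries at 0, the size of this fold is uncertain, and the call was lost without LF-C-1 at an adjusted p of 0.0521. Ephb2, a receptor for ephrins, rose from 1.43, 3.24, 1.91 and 0.599 CPM in LF-C to 14.2 to 35.8 (median 18.9) in HF-KO (log2 3.61 ± 0.44, adjusted p = 0.00378). Fam83a was at 0.714, 0.948, 0.817 and 0.665 CPM in LF-C, at 35.1, 37.3, 15.4, 46.4 and 35.9 in HF-C and 5.57 to 12.4 (median 7.04) in HF-KO. Its HF-KO libraries lay between the other groups without overlap, at log2 3.29 ± 0.32 against LF-C and -2.10 ± 0.26 against HF-C (adjusted p = 0.00129 and 0.00045). Ttc39a rose by 2.79 ± 0.42 (adjusted p = 0.00766).

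The 10 largest falls were Mup11, Mup17, Mup15, Gadd45g, Foxq1, Serpina1e, Hsd3b5, Pitx3, Pcp4l1 and Apom. Mup11 encodes a major urinary protein, a pheromone carrier secreted by the mouse liver. It was at 75.1, 323, 86.8 and 105 CPM in LF-C and 1.16 to 9.94 (median 3.84) in HF-KO (log2 -4.88 ± 0.58, adjusted p = 0.00378). The Mup genes are near-identical copies, as are the Serpina1 genes, so the split of reads among them is uncertain. Serpina1e, of the α1-antitrypsin family, fell from 1724, 3081, 1137 and 1694 CPM in LF-C to 35.1 to 457 (median 226) (log2 -3.08 ± 0.52, adjusted p = 0.0125). Foxq1, a forkhead transcription factor, was at 9.68, 61.3, 48.9 and 7.92 CPM in LF-C and 0.609 to 4.93 (median 2.15) in HF-KO (log2 -3.69 ± 0.64, adjusted p = 0.015), with LF-C-2 and LF-C-3 far above LF-C-1 and LF-C-4. Apom, a carrier of sphingosine 1-phosphate in lipoproteins, was at 303, 945, 143 and 156 CPM in LF-C and 81.8 to 104 (median 86.2) in HF-KO. LF-C-2 stood far above the other LF-C libraries, and the call (log2 -2.13 ± 0.44, adjusted p = 0.0275) was lost without LF-C-1 or HF-KO-1, -3, -4, -5 or -6 at an adjusted p of 0.0529 to 0.0789. Pitx3 changed by -2.58 ± 0.52 (lost without HF-KO-1 or -6 at an adjusted p of 0.0623 to 0.0789), Mup17 by -4.60 ± 0.75 and Mup15 by -3.95 ± 0.78 (lost without HF-KO-5 or -6 at an adjusted p of 0.0526 to 0.0751). In LF-KO, labelled healthy, Mup17 was at 1.085 to 7.868 CPM, below every LF-C library (23.65 to 222.5). Mup15 was at 1.212 to 10.04 CPM there, also below LF-C (11.93 to 95.54). Mup11 was at 2.934 to 93.52 CPM (median 12.06) in LF-KO, overlapping LF-C, as did LF-KO for the other falls named.

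**Figure D3:**
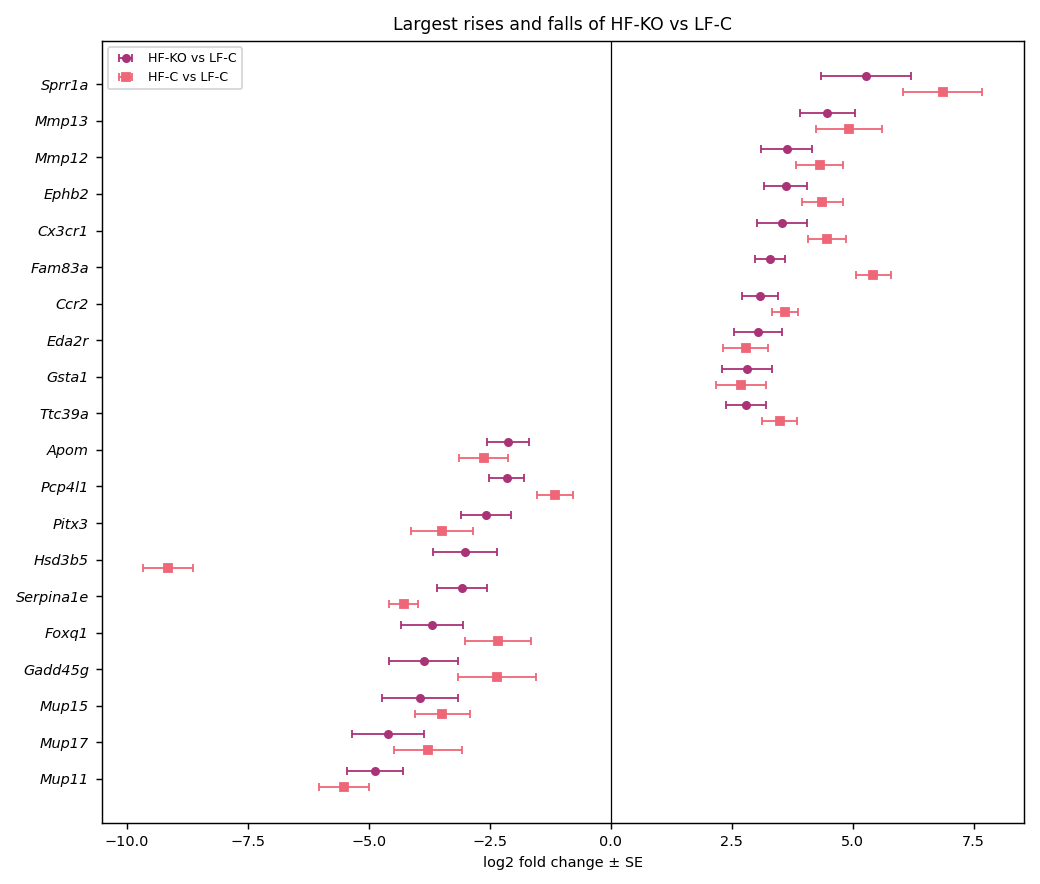
Log2 fold change ± SE (horizontal axis) of the 10 largest rises and 10 largest falls of HF-KO vs LF-C (circles), beside HF-C vs LF-C (squares), which shares the LF-C libraries. Hsd3b5 is at -3.01 in HF-KO vs LF-C and -9.14 in HF-C vs LF-C, and Fam83a at 3.29 and 5.42. As Hsd3b5 was at most 0.570 CPM in HF-C, the size of its fold in HF-C vs LF-C is uncertain.

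Of the genes called against LF-C, 12 were higher and 15 lower than in HF-C as well, while 63 of those higher and 19 of those lower than in LF-C were called in the opposite direction against HF-C. Pparg was among the 12 (HF-KO vs HF-C log2 1.47 ± 0.23, adjusted p = 0.00276). Aqp4, a water channel, was at 3.06, 0.869, 6.87 and 9.65 CPM in LF-C, 21.9, 21.8, 10.4 and 6.97 in LF-KO, 6.54, 7.91, 5.24, 7.55 and 5.13 in HF-C and 19.1 to 30.5 (median 22.4) in HF-KO. HF-KO lay above LF-C and HF-C without overlap, at log2 2.17 ± 0.47 against LF-C (adjusted p = 0.0305, lost without LF-C-1 or HF-KO-1, -3, -4, -5 or -6 at an adjusted p of 0.056 to 0.0959) and 1.87 ± 0.16 against HF-C (adjusted p = 2.48e-05). Cyp2c55, a cytochrome of a large family, rose by 2.38 ± 0.37 and 0.95 ± 0.25 in these comparisons (adjusted p = 0.00862 and 0.0322). Stap1, an adaptor of immune receptor signals, gave 2.04 ± 0.40 and 0.88 ± 0.26, and Defb1, an antimicrobial peptide, 2.04 ± 0.43 and 1.05 ± 0.31. Calls against LF-C were lost without LF-C-1 or HF-KO-6 at an adjusted p of 0.0657 to 0.0716 for Stap1 and without LF-C-1 or HF-KO-1 or -6 at an adjusted p of 0.0635 to 0.0835 for Defb1. Calls against HF-C were lost without HF-C-1, -2, -4 or -5 or HF-KO-3 or -5 at an adjusted p of 0.0514 to 0.0847 for Cyp2c55, without HF-C-1, -2, -3, -4 or -5 or HF-KO-3 or -6 at an adjusted p of 0.083 to 0.0968 for Stap1 and without HF-C-1, -2, -3, -4 or -5 or HF-KO-1, -2, -3 or -6 at an adjusted p of 0.0506 to 0.106 for Defb1. Falls of this kind were Plin4, given above, Gadd45g and Pcp4l1. Gadd45g, a stress gene of cell cycle arrest, was at 12.0, 263, 82.1 and 12.1 CPM in LF-C, at 10.6, 27.8, 15.9, 23.1 and 12.7 in HF-C and 4.36 to 9.42 (median 5.54) in HF-KO. Its LF-C libraries varied widely, and HF-KO lay below all of them (log2 -3.87 ± 0.72, adjusted p = 0.019) and was lower than HF-C (log2 -1.48 ± 0.27, adjusted p = 0.00586). Pcp4l1 gave -2.15 ± 0.37 and -0.96 ± 0.28 (adjusted p = 0.0133 and 0.0472), the latter call lost without HF-C-2, -3, -4 or -5 or HF-KO-1, -3, -4 or -5 at an adjusted p of 0.0596 to 0.125. Among genes that lay between the control groups, with calls in opposite directions, were Lcn2 and Spp1. Lcn2, which binds bacterial iron carriers, was higher than LF-C (log2 2.25 ± 0.45, adjusted p = 0.0236, lost without LF-C-1 or HF-KO-1 or -6 at an adjusted p of 0.0551 to 0.0662) and lower than HF-C (-1.22 ± 0.28, adjusted p = 0.0183, lost without HF-C-4 at an adjusted p of 0.0513). Spp1, osteopontin, a cytokine of bile duct cells and macrophages, was at 47.0, 31.5, 42.5 and 25.5 CPM in LF-C and 74.6 to 175 (median 124) in HF-KO, with no overlap (log2 1.82 ± 0.28, adjusted p = 0.0085; against HF-C -1.35 ± 0.28, adjusted p = 0.0106). Mup12, another major urinary protein, was lower than LF-C (log2 -2.44 ± 0.54, adjusted p = 0.033, lost without LF-C-2 or HF-KO-1, -4, -5 or -6 at an adjusted p of 0.0632 to 0.0878) and higher than HF-C (log2 3.00 ± 0.46, adjusted p = 0.00228). As Mup12 was at 0.244 to 0.674 CPM in HF-C, the size of its fold against HF-C is uncertain.

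**Figure D4:**
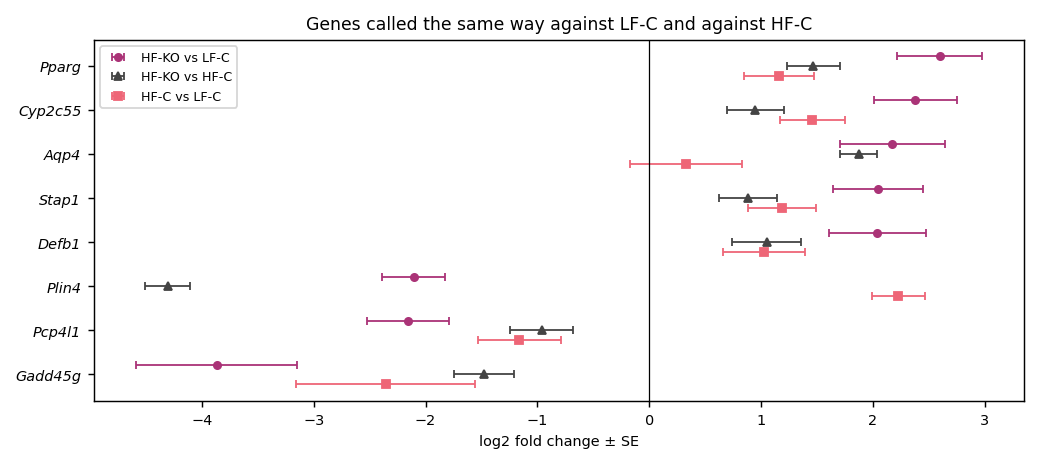
Log2 fold change ± SE (horizontal axis) of the 8 genes with the largest change against LF-C among those called the same way against HF-C, for HF-KO vs LF-C (circles), HF-KO vs HF-C (triangles) and HF-C vs LF-C (squares). Plin4 is at -2.11, -4.31 and 2.23 in these.

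Other cell types and processes gave few or no calls in HF-KO vs LF-C. T and NK cell markers gave 0 of 8 tested, B and plasma cell markers 0 of 7, neutrophil markers 0 of 3, sinusoidal endothelial markers 0 of 12 and erythroid markers 0 of 5. Bile duct markers gave 1 of 12, Spp1, at a median of -0.21 that was 0.75 without LF-C-2 with 2 higher, beside 2 higher and 1 lower without LF-C-3 and 2 higher with library size as the sole scaling. Krt19, a keratin of bile duct cells, was at 1.43, 73.2, 0.885 and 1.46 CPM in LF-C and 1.48 to 2.505 (median 2.00) in HF-KO and did not pass (log2 -3.29 ± 1.00, adjusted p = 0.0836). That fall rests on LF-C-2, without which the sign turned (log2 0.65, adjusted p = 0.309) and the other LF-C libraries all lie below HF-KO, while without LF-C-3 it was called lower (adjusted p = 0.0407). MHC class II presentation gave 0 of 8 at a median of 0.22, which was 1.22 without LF-C-2 with 3 members called, and 6 of the 8 were lower in HF-KO vs HF-C. Lysosomal genes gave 0 of 14, the circadian clock 0 of 16, the respiratory chain 0 of 16 and sterol efflux 0 of 10. Acute phase proteins gave 2 of 19, Lcn2 and Saa2 (log2 1.78 ± 0.45, lost without LF-C-1, -3 or -4 or HF-KO-1, -2, -3, -4, -5 or -6 at an adjusted p of 0.0624 to 0.128). Of these lists with 0 calls, 1 or 2 members each of the T and NK, B, neutrophil, endothelial and erythroid lists, 2 of MHC class II, 6 lysosomal, 4 circadian, 5 respiratory chain and 5 sterol genes had an unadjusted p under 0.05. So did 3085 of all 13641 genes tested. DESeq2 called 1, 1, 0, 0, 0, 1, 2, 2, 5 and 3 members of these lists in that order, and limma-voom called 1, a lysosomal gene. Over all genes, DESeq2 called 620 higher and 816 lower, and limma-voom 241 and 74. Single libraries gave calls too. Without LF-C-2, 1 neutrophil and 1 lysosomal gene were higher. Without LF-C-3, 1 endothelial, 1 MHC class II and 1 circadian gene were higher and 1 B cell, 1 sterol, 2 circadian and 3 respiratory chain genes lower. Without LF-C-4, 1 sterol and 2 respiratory chain genes were lower, and without HF-KO-2, 1 sterol and 1 MHC class II gene were higher and 1 B cell gene lower. With library size as the sole scaling, 1 sterol, 1 neutrophil, 1 lysosomal and 2 MHC class II genes were higher. Acute phase proteins gave 4 higher without LF-C-2 or with that scaling, 1 higher with 1 lower without LF-C-3, 1 with 2 lower without LF-C-4, 1 without HF-KO-2, -3, -4 or -5, and 0 without LF-C-1, HF-KO-1 or -6. Of 8 fetal and tumour-associated liver genes Cd44, a hyaluronan receptor, and Sox4, a transcription factor, were higher (log2 1.24 ± 0.24 and 1.49 ± 0.38, lost without LF-C-1 or HF-KO-1 or -6 at an adjusted p of 0.0546 to 0.0685 and without LF-C-1, -2 or -4 or HF-KO-1, -3, -4, -5 or -6 at an adjusted p of 0.0684 to 0.118), while Afp, the fetal α-fetoprotein, did not pass (log2 0.50 ± 0.28, adjusted p = 0.303). That list gave 4 higher without LF-C-2, 5 with library size as the sole scaling, 1 without LF-C-4, HF-KO-3, -4 or -5, and 0 without LF-C-1, HF-KO-1 or -6. Of 8 genes of insulin signalling Igfbp2, which binds insulin-like growth factors, was lower (log2 -1.35 ± 0.29, lost without LF-C-1 or HF-KO-1, -3, -4, -5 or -6 at an adjusted p of 0.058 to 0.0789), with 2 lower without LF-C-2.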

How the data were processed

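RNA from whole liver was sequenced as paired reads from libraries without strand, aligned with STAR 2.5 and counted with HTSeq 0.6.1, per the submitters' processing notes and the labels' protocols. Build and annotation are not stated in the labels or files used, and positions are those the deposited tables carry. The deposited values used are read counts per gene, not normalized by the authors. A table with HF-KO and HF-C and one with LF-KO and LF-C were joined by gene ID, with a gene missing from a table set to 0 (23445 and 21811 genes listed, 21064 in both). Each pair was fitted on its own libraries with edgeR 4.0.16 in R 4.3.3, with TMM factors, filterByExpr at a count minimum of 10, the quasi-likelihood test, and Benjamini-Hochberg adjustment over all genes tested, called at 0.05. SEs are the log2 fold change over the root of the F statistic. The fit was tested on simulated data.

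Gene lists and the naming of genes were chosen with earlier results of these data known. Named are Pparg, the 10 largest rises and 10 largest falls without overlap (group mean of 5 CPM or more), the 8 genes with the largest change called the same way and the 8 called the opposite way against HF-C, up to 3 genes of smallest p per list, and a fixed list of key genes; the other called list members and Plin2, Csf1r, Cd68, Ifit1 and Isg15 were named after their values were seen. Genes of these rules are printed only in part, and counts over chosen genes cover them all. Of 624 list members 621 were found. Nothing in the labels says how mice were housed or batched, so p-values measure the spread between these livers. Alternatives used DESeq2 1.42.0, limma 3.58.1, other scalings and filters, all 19 libraries, the replicate number as a block, and left-out libraries. Leaving out LF-C-2 and HF-KO-2 together was chosen after seeing the data.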

Additional observations from a re-analysis of the deposited data

Results flagged for a closer look

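Of 358 checks of the level of a gene chosen by the naming rules, printed or not, within LF-C or HF-KO, 36 found a library far from the rest of its group by Dixon's test, where chance flags about 1 in 20. LF-C-2 accounted for 17, HF-KO-2 for 8, HF-KO-3 and HF-KO-6 for 3 each, LF-C-1 for 2, and LF-C-3, LF-C-4 and HF-KO-5 for 1 each.

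LF-C-2 stood high for genes of other cell types. Krt19 of bile ducts was at 73.2 CPM against at most 1.46 in the other LF-C libraries, Hba-a1 and Hba-a2 of red cells at 618 and 64.5 against at most 82 and 6.65, and Acta2 of smooth muscle at 58.9 against 7.32. Marco, a macrophage scavenger receptor, was at 70.2 CPM against at most 12.1, Gpnmb at 11.9 against 1.83, H2-DMb1 of antigen presentation at 14.7 against 5.58, S100a8 of neutrophils at 2.69 against 0.713, and Ly6d at 10.3 against 1.22. The liver proteins Mup11 and Saa2 were at 323 and 108 CPM there, against at most 105 and 38.9. Isg15 of the interferon response was at 22.9 CPM against at most 9.28. At low levels, Ccl3 was at 0.395 CPM against 0.0665, and Sprr1a at 0.553 and Slc7a11 at 0.079 against 0. Plau and the NF-κB inhibitor Tnfaip3 stood low in LF-C-2, at 1.58 and 1.19 CPM against at least 2.14 and 3.88. Whether these levels take part in the results against LF-C was not tested beyond leaving LF-C-2 out.

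Among the other LF-C libraries, LF-C-1 had Gdf15, a stress hormone, at 16.3 CPM against at most 5.06, and Srebf1 at 550 against 258. LF-C-3 had G0s2 at 131 CPM against at least 252, and LF-C-4 had the endothelial receptor Gpr182 at 26.8 against at least 41.9.

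HF-KO-2 stood high for the antibody genes Igkc at 14.5 CPM against at most 8.82 and Igj at 5.74 against 2.27, for Tlr4 at 9.66 against 6.15, G0s2 at 164 against 104, Apom at 104 against 88.1, Cyp2c55 at 9.83 against 5.69 and Cyc1 of the respiratory chain at 200 against 177. Csf3r, a receptor of neutrophils, was low there, at 2.78 CPM against at least 5.63. HF-KO-3 was high for Slc10a1 at 444 CPM against at most 352, Mup17 at 11.8 against 3.57 and Mup15 at 8.63 against 3.22. HF-KO-6 was high for Ccr2 at 26.1 CPM against at most 13.2 and Fam83a at 12.4 against 8.07, and low for Uqcrc1 at 190 against at least 210. HF-KO-5 had Cd4 at 1.9 CPM against at most 1.11.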

How the results depend on the processing

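Higher and lower genes of HF-KO vs LF-C, 282 and 148, became 620 and 816 with DESeq2, 597 and 57 with library size alone, 971 and 1323 with all 19 libraries in 1 fit, and 533 and 250 without both LF-C-2 and HF-KO-2. Limma-voom gave 74 lower genes. Leaving out single libraries gave 54 to 360 higher and 21 to 388 lower genes. For HF-C vs LF-C, 1469 higher and 988 lower genes became 2729 and 327 with library size alone, lower genes numbered 2018 with DESeq2 and 1883 with all 19 libraries, and leaving out single libraries gave 1001 to 2051 and 450 to 1629. For HF-KO vs HF-C, 605 higher and 755 lower genes became 1055 and 1217 with DESeq2 and 197 and 334 with all 19 libraries, higher genes numbered 345 with library size alone, and leaving out single libraries gave 274 to 819 and 404 to 995. The cause was not tested.

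With the replicate block, higher and lower genes numbered 4 and 2 for HF-KO vs LF-C, 545 and 155 for HF-C vs LF-C, and 306 and 480 for HF-KO vs HF-C. The block fits a term per replicate number. HF-KO-5 and HF-KO-6 have no LF-C library of the same number, so they add nothing to the fitted difference from LF-C. How far this lowers the counts was not tested. Same-numbered libraries of HF-KO and LF-C deviated with correlations of -0.034, 0.206, 0.152 and 0.061, beside -0.274 to 0.253 for libraries of different numbers. The labels name no pairing or batch behind the number, and whether one exists was not tested. Of the 88 called genes chosen for naming, 88 kept the call with DESeq2, 72 with limma-voom, 86 with median-of-ratios factors and 75 with library size alone. It was kept by 82 with no filter, 81 with a stricter filter, 88 with all 19 libraries and 5 with the block (Pparg at an adjusted p of 0.0916). With a library left out 33 to 80 kept it, and without both LF-C-2 and HF-KO-2 85 did. No called gene reversed its direction under these. Among genes not called, the sign turned in 12. With single libraries left out the log2 fold change ran from -3.67 to 0.65 for Krt19, -1.66 to 0.31 for Marco, -1.74 to 0.060 for Hba-a1, -1.54 to 0.46 for Hba-a2, -0.91 to 0.45 for Mylpf, -0.33 to 0.24 for Csf1r, -0.64 to 0.20 for Clec4f and -0.14 to 0.007 for Plin2, each turned by LF-C-2. It ran from -0.12 to 0.57 for Cd68 and -0.14 to 0.43 for Srebf1. Without both LF-C-2 and HF-KO-2 it was 0.69 for Krt19, 0.19 for Marco, 0.051 for Hba-a1, 0.42 for Hba-a2, 0.43 for Mylpf, 0.33 for Csf1r and 0.026 for Acta2. With library size alone it was 0.001 for Alas2, 0.031 for Clec4f, 0.28 for Plin2 and 0.30 for Csf1r. Srebf1 was at -0.005 with DESeq2 and limma-voom and -0.008 with median-of-ratios factors. Without LF-C-2, the medians of 21 of 44 lists moved and 9 changed sign. Genes under about 1 CPM rest on few reads per library.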
